A study of Mus musculus with 6 samples.

Results

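The 8 genes Axl, Mertk, Tyro3, Gas6, Mfge8, Cd36, Tgm2 and Msr1 encode receptors, bridging molecules and a cross-linking enzyme with which phagocytes take up apoptotic cells. They were chosen by name as a list of symbols, all 8 had a probe set in the array's annotation, and they were read among 12393 genes measured. The study sorted CD11c-positive conventional dendritic cells (DCs, antigen-presenting cells of the immune system) by flow cytometry from BALB/c mice, an inbred laboratory strain, and hybridised their RNA to Affymetrix 3′ arrays. One group was labelled spleen and the other lymph node, with 3 arrays each, numbered 1 to 3. No treatment, genotype, sex or age is given in the labels used here, nor which lymph nodes were taken or whether an array stands for 1 animal or a pool. The p-values therefore cover array-to-array spread alone, possibly only technical spread.

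Dying cells expose phosphatidylserine on their surface, and phagocytes bind it directly or through soluble bridges. The bridge Gas6 links phosphatidylserine to the receptor tyrosine kinases Tyro3, Axl and Mertk (the TAM family), which drive engulfment and also dampen inflammatory signalling. The secreted glycoprotein Mfge8 links phosphatidylserine to alpha-v integrins, Cd36 and Msr1 are scavenger receptors that bind oxidised lipids and lipoproteins, and Tgm2 (tissue transglutaminase) cross-links proteins and acts as an integrin co-receptor in macrophage uptake. In DCs, uptake of dying cells feeds antigen into presentation, and CD8-lineage DCs are known for it.

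The arrays had medians of 39.4 to 41.3 intensity units and lower quartiles of 9.6 to 10.6, and the 3 arrays per group limit the precision of every value. The conventional DC genes Itgax, which encodes CD11c, and Flt3, the receptor that sustains DCs, were measured in both groups at different levels. Itgax lay at 856.1, 1152 and 939.2 intensity units in the arrays labelled spleen and at 1879, 1845 and 2006 in those labelled lymph node, and Flt3 at 140.5 to 264.2 and at 274.0 to 340.8. All 9 conventional DC markers had groups that did not overlap. Of these 8 were lower in arrays labelled spleen, 2 of them past the threshold (Itgax and Sirpa), and Xcr1, a chemokine receptor of CD8-lineage DCs, went the other way (1.14, limma adjusted p = 0.270). Their summed intensity was 11734 to 17714 in arrays labelled spleen and 21570 to 23342 in those labelled lymph node. Against the labels, the arrays labelled spleen had 31.3-fold more Ccl22 and 2.77-fold more Ccr7, textbook genes of DCs that migrate from tissues into lymph nodes. These 2 genes were named after their values were seen, and they do not settle whether the labels are right. Groups are named as labelled throughout, and differences are on the log2 scale of the deposited intensity, labelled spleen minus labelled lymph node. In limma 421 of 12393 genes passed an adjusted p of 0.05, which is 3.4% of all genes (2.03% towards the arrays labelled spleen and 1.37% towards those labelled lymph node). In 24.5% of all genes no value of one group lay within the range of the other. Bacterial poly-A control probe sets and markers of several other cell types differed between the groups too. The controls had a mean log2 intensity of 8.41 to 9.06 in arrays labelled spleen and 7.39 to 7.96 in arrays labelled lymph node. The plasmacytoid DC markers (3 of 11 higher in arrays labelled spleen, 0 lower) summed to 1722 to 5774 and to 753.4 to 1369 intensity units. Of these markers 0 had a mean log2 level under 4. T cell markers (2 of 10 higher, Cd28 and Il7r, 0 lower) summed to 1260 to 2832 in arrays labelled spleen and 274.2 to 779.7 in those labelled lymph node. B cell markers (2 of 9 lower, Cd22 and Cr2, 0 higher) summed to 221.4 to 281.3 and 411.4 to 606.9, and neutrophil markers (1 of 10 lower, Camp, 0 higher) to 99.7 to 166.9 and 213.9 to 761.1. The part of these cells in the results was not tested. Fits with the poly-A or plasmacytoid DC level as a covariate were run, but neither level overlapped between the groups. Those fits therefore cannot tell these levels apart from the labelled organ. In bulk RNA of sorted cells, fewer cells of a type and less RNA per cell cannot be told apart.

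Promoter sequences from the RefSeq table (mouse build GRCm38.p6) were found for 6 of the 8 genes, all except Tgm2 and Msr1. The 250 bases before the start site are shown for Mfge8 and Cd36, both of which were brighter on all arrays labelled spleen, with GC boxes (GGGCGG) and CCAAT boxes (CCAAT) in capitals on either strand, 5′ to 3′ along the gene's own minus strand. They stand at chr7:79149061-79149310 for Mfge8 and at chr5:17835897-17836146 for Cd36.

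Mfge8: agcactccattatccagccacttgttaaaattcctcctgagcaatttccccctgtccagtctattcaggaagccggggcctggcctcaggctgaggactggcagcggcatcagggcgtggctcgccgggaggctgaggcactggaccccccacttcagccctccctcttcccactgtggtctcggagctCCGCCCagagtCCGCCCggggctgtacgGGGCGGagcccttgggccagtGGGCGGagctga
Cd36: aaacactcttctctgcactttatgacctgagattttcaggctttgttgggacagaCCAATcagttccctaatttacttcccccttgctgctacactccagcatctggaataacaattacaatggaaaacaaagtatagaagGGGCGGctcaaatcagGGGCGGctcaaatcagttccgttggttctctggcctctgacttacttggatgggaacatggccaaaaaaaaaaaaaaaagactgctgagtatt

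The Mfge8 window held 4 GC boxes and was 65.2% G and C, while the Cd36 window held 2 GC boxes and 1 CCAAT box at 43.2% G and C. Both GC boxes of Cd36 lie inside a 16-base unit, aggggcggctcaaatc, whose copies follow each other directly from position -111 to -80 before the start. A repeat of at least 15 bases in direct succession was found in 0.861% of the 32851 promoter windows of the same length in the table. A GC box was found in 32.7% of those windows and a CCAAT box in 33.8%. Other motifs searched on both strands were the TATA box (TATAAA, in 12.4% of windows), the nuclear receptor half-site (AGGTCA, 14.0%) and the PU.1 core (GAGGAA, 23.3%). Of these the Cd36 window held 1 half-site and the Mfge8 window 1 PU.1 core, and the motifs did not overlap the GC or CCAAT boxes. The windows of Gas6, Mertk, Tyro3 and Axl held 4, 3, 3 and 1 GC boxes. These letter matches describe the windows and show no binding.

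Of the 8 genes, 2 passed the threshold in limma, Mfge8 towards the arrays labelled spleen and Tgm2 towards those labelled lymph node, where 3.4% of all genes passed, 2.03% and 1.37% in these directions. The groups did not overlap for 3 of the 8, Mfge8, Tgm2 and Cd36, against 24.5% of all genes. The median difference of the 8 was 0.14, beside -0.0053 over all genes. The other 5 genes, the 3 TAM receptors, Gas6 and Msr1, had groups that overlapped and differences of 0.49 or less in size. In exact permutation tests over the 6 arrays the 3 separated genes had a two-sided p of 0.1, the smallest that 3 arrays against 3 allow.

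**Figure D1:**
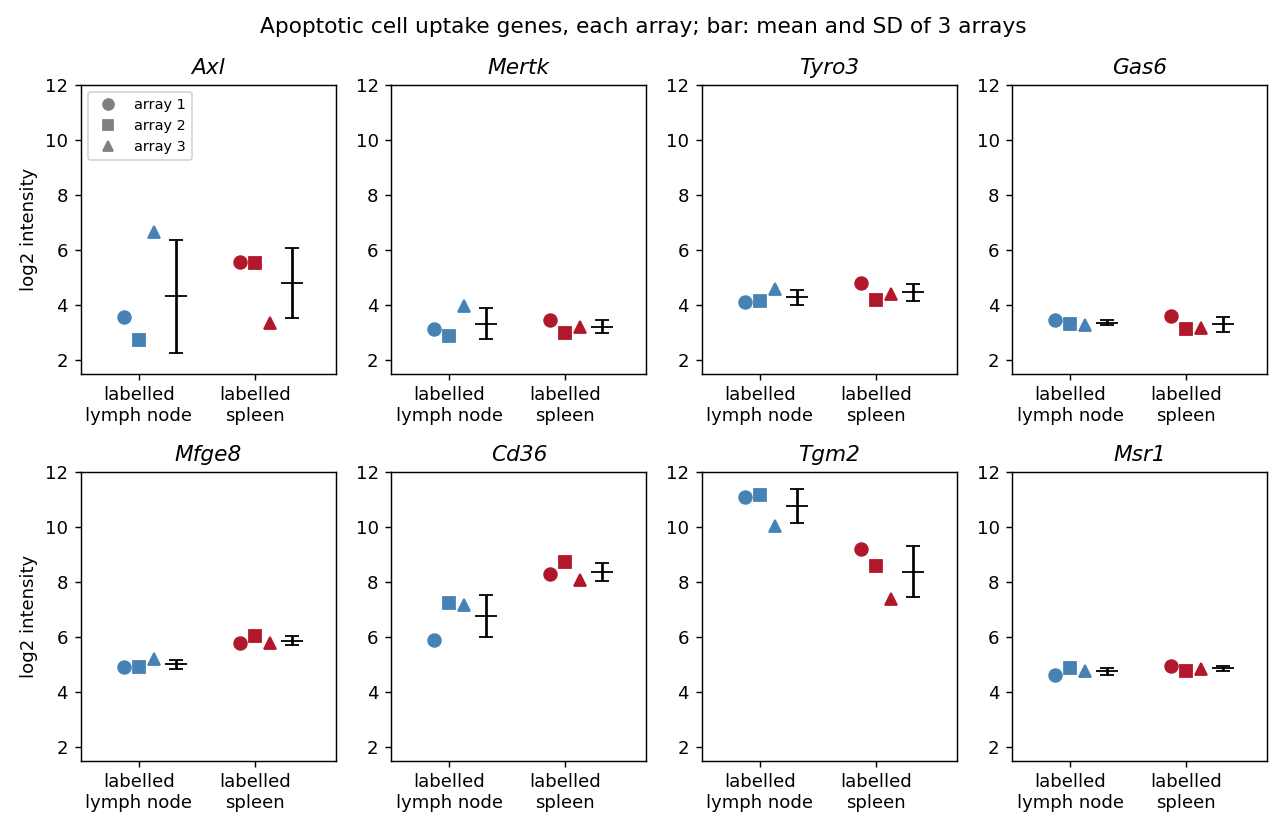
Log2 intensity (y axis, same scale in all panels) of the 8 genes in each of the 6 arrays, by labelled organ, with the array number as the symbol and the mean and SD of 3 arrays beside the points. Mfge8 and Cd36 are higher in all 3 arrays labelled spleen, Tgm2 is higher in all 3 labelled lymph node, and Axl spreads widely within both groups.

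The bridging molecules came out differently. Mfge8, the milk fat globule protein that connects dying cells to integrins, lay at 54.5, 65.9 and 54.8 intensity units in the arrays labelled spleen and at 30.1, 29.9 and 36.2 in those labelled lymph node. Every array labelled spleen was above every array labelled lymph node, and the values within a group lay close together. On the log2 scale the means were 5.86 ± 0.16 and 5.0 ± 0.16 (SD, n = 3 each), a 1.82-fold difference (0.86 ± 0.17 SE, limma adjusted p = 0.0385). Its single probe set left no second measurement, and its level was around the median of the arrays. Gas6, the bridge of the TAM receptors, lay at 12.1, 8.8 and 8.9 in the arrays labelled spleen and at 11.0, 10.0 and 9.7 in those labelled lymph node. These values overlap and stand near the lower quartile of the arrays, a level at which signal and background are hard to separate. The difference was -0.06 with a 95% interval of -0.48 to 0.36 (limma adjusted p = 0.911).

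The call on Mfge8 was narrow. With 1 array left out the difference stayed between 0.77 and 0.96, but the adjusted p lay between 0.0487 and 0.175 and passed only without spleen array 3. It was 0.175 without lymph node array 1, 0.169 without lymph node array 2, 0.0562 without lymph node array 3, 0.0872 without spleen array 1 and 0.0756 without spleen array 2. With the poly-A control level in the fit Mfge8 differed by 0.99 (adjusted p = 0.880), and with the plasmacytoid DC level 0.86 (adjusted p = 0.229). Stromal and follicular dendritic cells are a textbook source of Mfge8. Of the 10 measured markers listed for them 1 was higher in the arrays labelled spleen, Clu, and 0 lower. Their summed intensity was 212.8 to 251.8 in the arrays labelled spleen and 133.8 to 175.4 in those labelled lymph node. Of the 10 markers 6 had a mean log2 level under 4, and the part of these cells in the Mfge8 result was not tested. Without Clu the other 9 markers summed to 137.2 to 150.6 and 116.5 to 153.9, and the groups overlapped. Clu was left out after it had passed, so the sums had to move closer together. The mean log2 intensity of all 10 markers was 3.97, 3.86 and 3.98 in spleen arrays 1 to 3. In lymph node arrays 1 to 3 it was 3.67, 3.43 and 3.75. Of the 10 markers 7 had differences above 0 and 3 below. Cxcl13, another marker of the list, differed by 0.85 without overlap (1.80-fold, limma adjusted p = 0.0705). Cr2 was counted with the B cell markers and not in this list, and it went the other way without overlap (-1.60, limma adjusted p = 0.0466).

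Among the TAM receptors Axl was the most variable of the 8 genes across arrays. It lay at 47.4, 45.7 and 10.1 intensity units in the arrays labelled spleen and at 11.9, 6.7 and 99.6 in those labelled lymph node, a 14.9-fold range that the labels did not order. Lymph node array 3 held the highest value and lymph node array 2 the lowest. The difference was 0.49 ± 1.01 (SE), with a 95% interval of -1.86 to 2.84 (limma adjusted p = 0.855). A second Axl probe set lay at a mean of 3.08 intensity units, at the bottom of the scale, and showed none of this spread.

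Mertk, the TAM receptor best known from macrophages, lay at 11.0, 7.9 and 9.2 in the arrays labelled spleen and at 8.8, 7.4 and 15.6 in those labelled lymph node. Lymph node array 3 was again the highest, and all values but that one were near the lower quartile of the arrays. The difference was -0.12 with an interval of -0.79 to 0.56 (limma adjusted p = 0.884). Tyro3, the third kinase of the family, lay at 27.7, 18.2 and 21.2 and at 17.2, 17.8 and 24.2, overlapping values with a difference of 0.18 (interval -0.34 to 0.69, limma adjusted p = 0.738). Its second, dimmer probe set had the opposite sign, -0.45 ± 0.21 (SE, limma adjusted p = 0.312 over all probe sets), and groups that did not overlap.

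Among the 3 arrays labelled lymph node, markers of most listed cell types were mostly highest in the same array as Axl and Mertk. Of 17 measured macrophage markers 14 were highest in array 3 among the 3 arrays labelled lymph node, and their mean log2 intensity was 6.25 there against 5.0 and 4.88 in the other two. In the arrays labelled spleen it was 5.44, 5.53 and 5.14, with the lowest value in array 3, which also had the lowest Axl, though only 9 of the 17 were lowest there. Vcam1, an adhesion molecule of red pulp and other macrophages, lay at 22.1, 34.0 and 202.3 in the arrays labelled lymph node, and Mrc1, the mannose receptor, at 11.4, 10.9 and 80.3. The broad macrophage markers Adgre1, at 238.3, 186.7 and 163.0, and Cd68, at 414.7, 529.9 and 262.7, were instead lowest in lymph node array 3. These 4 markers were named after their values were seen. Plasmacytoid DC markers (9 of 11), T cell markers (8 of 10) and NK cell markers (6 of 9) were also mostly highest in lymph node array 3. Their mean log2 intensities there were 6.20, 5.70 and 5.68, against 5.43, 4.60 and 4.63 or less in lymph node arrays 1 and 2. Over all 6 arrays these 3 lists were not highest there. In spleen arrays 1 to 3 the plasmacytoid DC means were 6.86, 6.77 and 8.33. The T cell means were 6.85, 5.64 and 6.09 and the NK cell means 6.67, 5.06 and 5.19. Further lists were mostly highest in lymph node array 3 within that group. They were B cell (6 of 9), platelet (4 of 6), monocyte (3 of 5), endothelial (5 of 9) and red blood cell markers (3 of 5). The counts were 5 of 10 for stromal, 4 of 9 for conventional DC and 3 of 10 for neutrophil markers. The share of all genes highest there was not counted, so the pattern cannot be tied to particular cell types. Between the groups 1 of the 17 macrophage markers passed, Marco, higher in the arrays labelled spleen. The summed macrophage signal was 2471 to 3870 and 2256 to 3958 intensity units, and 5 of the 17 markers had a mean log2 level under 4. The part of macrophages or of the other cell types in the Axl and Mertk values was not tested. Without lymph node array 3 the Axl difference was 1.65 (limma adjusted p = 0.292), and without both arrays numbered 3 it was 2.38 (limma adjusted p = 0.0207). Those 2 arrays hold the lowest Axl value of the arrays labelled spleen and the highest of those labelled lymph node. Dropping both therefore had to widen the difference, and its p-value is no evidence of one. With lymph node array 2 left out the Axl difference was -0.30 (limma adjusted p = 0.942), and without spleen array 3 it was 1.22 (limma adjusted p = 0.547). Leaving out the first lymph node array or the first or second spleen array gave 0.11, 0.11 and 0.13 (limma adjusted p from 0.967 to 0.985).

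Cd36, the scavenger receptor that binds oxidised lipids and, with integrins, apoptotic cells, was brighter in the arrays labelled spleen but did not pass the threshold. It lay at 314.9, 421.3 and 266.2 intensity units there and at 58.6, 151.5 and 142.3 in the arrays labelled lymph node. The groups did not overlap, and the spread was wider among the arrays labelled lymph node, where array 1 was lowest. The means were 8.36 ± 0.34 and 6.76 ± 0.77 on the log2 scale (SD, n = 3 each), a 3.03-fold difference of 1.60 ± 0.37 (SE; 95% interval 0.73 to 2.47; limma adjusted p = 0.0633). All 3 of its probe sets had that sign, with differences of 1.60, 1.57 and 0.45, and the groups did not overlap in 2 of them. With 1 array left out the difference ranged from 1.16 (lymph node array 1 left out) to 1.85 (lymph node array 2 left out), and the adjusted p from 0.0742 to 0.149. It passed in 3 other fits, with the filter at the median level (limma adjusted p = 0.0436), with eBayes using trend and robust (0.0470) and with the replicate number as a block (0.0446).

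Platelets and endothelial cells also express Cd36, and their markers were compared between the same arrays. Of 6 platelet and megakaryocyte markers 0 passed in either direction, and their summed intensity was 65.3 to 82.6 in the arrays labelled spleen and 84.5 to 98.9 in those labelled lymph node. The platelet genes Pf4 and Ppbp lay at 3.5 to 6.5 intensity units on all 6 arrays, at the bottom of the scale. Of 9 endothelial markers 1 was higher, Cdh5, and 1 lower, Pecam1, with sums of 190 to 290.7 and 246.2 to 274.1. Of 5 measured monocyte markers 0 passed in either direction. Their sums did not overlap, at 354.1 to 727.8 in arrays labelled spleen and 102.3 to 291.6 in those labelled lymph node. Ccr2 alone lay at 431.6, 322.6 and 695.7 and at 66.5, 76.5 and 243.3 (difference 2.10, limma adjusted p = 0.0681). Of the 5 markers 4 had a mean log2 level under 4, and 2 had differences above 0 and 3 below. The part of these cell types in the Cd36 difference was not tested. With the poly-A control level in the fit the Cd36 difference was 1.10 (limma adjusted p = 0.917), and with the plasmacytoid DC level it was 1.69 (limma adjusted p = 0.291).

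Msr1, the class A scavenger receptor of macrophages, varied little in its brightest probe set. It lay at 30.7, 27.3 and 28.5 in the arrays labelled spleen and at 24.5, 28.8 and 27.1 in those labelled lymph node, a 1.25-fold range over all 6 arrays. The difference was 0.11 with an interval of -0.25 to 0.46 (limma adjusted p = 0.777). All 4 of its probe sets had the same sign and none passed, with the widest difference, 0.77 ± 0.24 (SE, limma adjusted p = 0.142 over all probe sets), in a dim probe set at a mean of 15.5 intensity units, whose groups did not overlap (20.5, 22.5 and 15.3 in arrays labelled spleen, 14.3, 11.5 and 8.7 in those labelled lymph node).

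Tgm2 had the largest difference of the 8 genes, and it ran the other way. The transglutaminase gene lay at 579.3, 376.8 and 166.0 intensity units in the arrays labelled spleen and at 2166, 2274 and 1039 in those labelled lymph node. The groups did not overlap, and array 3 was the lowest in both. The means were 8.37 ± 0.92 and 10.75 ± 0.63 on the log2 scale (SD, n = 3 each), so arrays labelled lymph node were 5.21-fold above the others (difference -2.38 ± 0.48 SE, limma adjusted p = 0.0430). Of its 6 probe sets all had that sign, 5 had groups that did not overlap and 4 passed in the fit over all probe sets, where 2.78% of probe sets passed. The differences in those 5 ran from -2.99 to -2.14, and the sixth probe set lay at a mean of 3.73 intensity units, at the bottom of the scale, with a difference of -0.25. The chosen probe set carries the suffix of designs that can cross-hybridise, and the probe set used in its place without such designs differed by -2.99 (limma adjusted p = 0.0281).

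**Figure D2:**
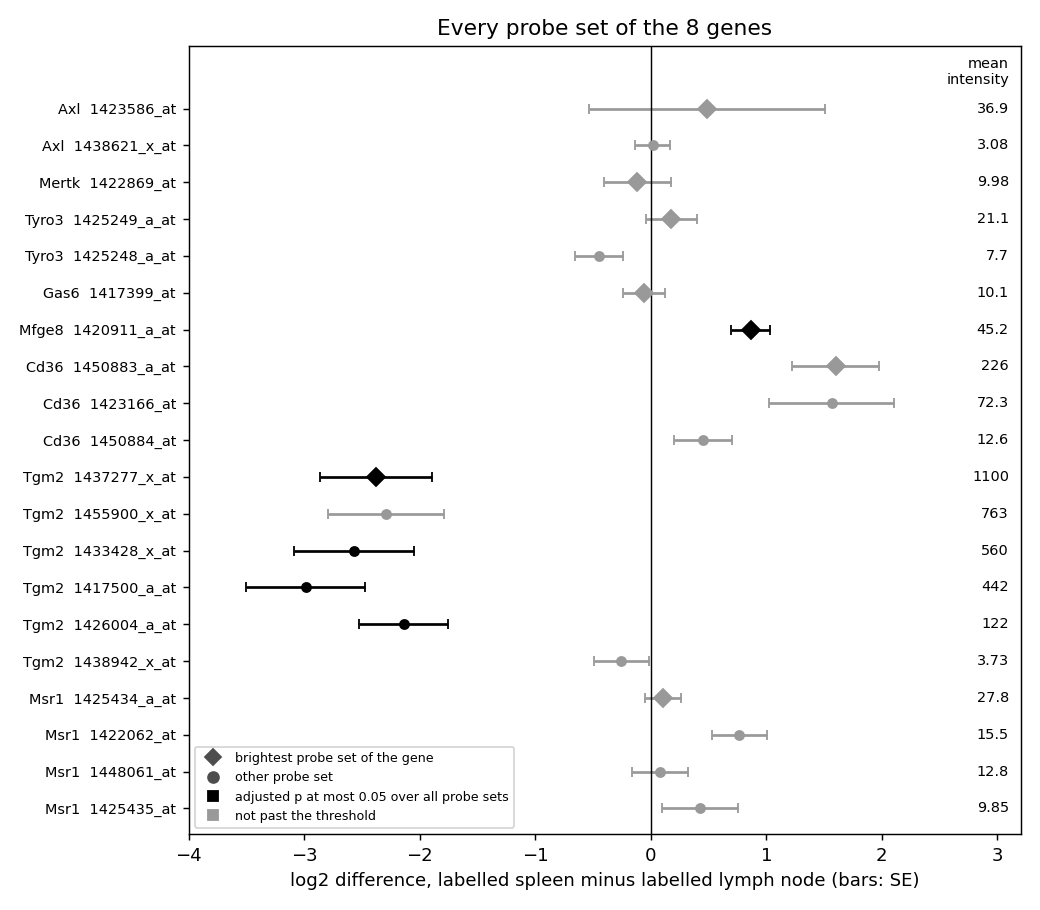
Difference between the groups (x axis, log2, labelled spleen minus labelled lymph node, bars SE) for all 20 probe sets of the 8 genes, with the mean intensity over 6 arrays at the right. The 5 bright Tgm2 probe sets lie between -2.99 and -2.14, the 3 Cd36 probe sets between 0.45 and 1.60, and the second Axl and sixth Tgm2 probe sets, the dimmest, lie near 0.

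The Tgm2 call depended on single arrays. With 1 array left out the difference lay between -2.78 and -1.88, and the adjusted p between 0.0444 and 0.175. It passed only without lymph node array 3. It was 0.175 without lymph node array 1, 0.172 without lymph node array 2, 0.0562 without spleen array 1, 0.0734 without spleen array 2 and 0.0502 without spleen array 3. With log2 of the value plus 16 it was -2.32 (limma adjusted p = 0.0775). The mean log2 level of the plasmacytoid DC markers was 6.86, 6.77 and 8.33 in spleen arrays 1 to 3 and 5.36, 5.43 and 6.20 in lymph node arrays 1 to 3. With that level as a covariate the Tgm2 difference was -0.64 ± 0.39 (SE, limma adjusted p = 0.446), and with the poly-A level it was -1.33 ± 1.09 (SE, limma adjusted p = 0.917). Over all genes 27 and 0 passed in these 2 fits. Neither level overlapped between the groups, so the fits cannot tell these levels apart from the labelled organ. The part of either in the Tgm2 difference was not tested.

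**Figure D3:**
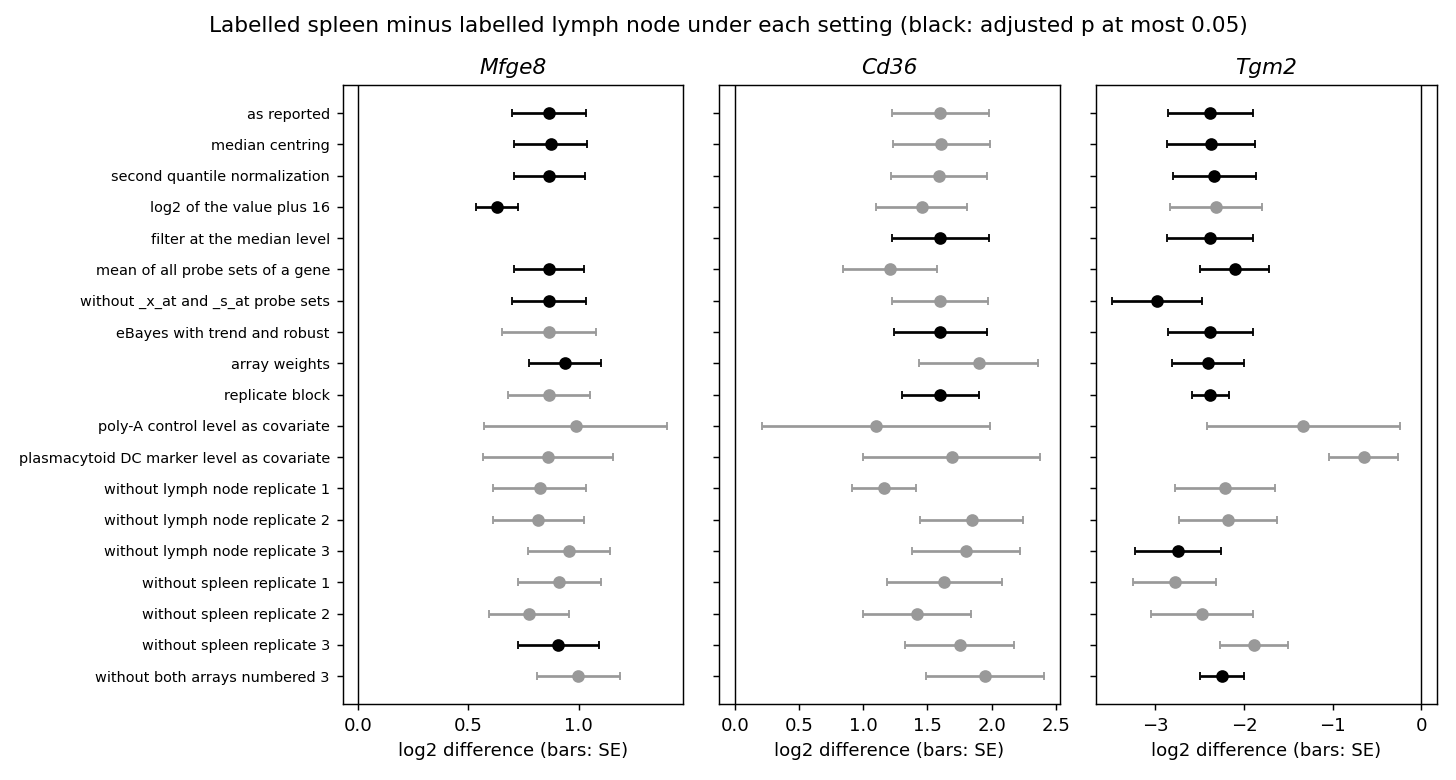
Difference between the groups (x axis, log2, bars SE) of Mfge8, Cd36 and Tgm2 as reported and under each alternative (y axis), with black points where the adjusted p was at most 0.05. The sign held for the 3 genes under all alternatives in which they were measured, and Mfge8 lay between 0.63 and 1.00, Cd36 between 1.10 and 1.95 and Tgm2 between -2.99 and -0.64; Mfge8 was below the level filter.

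Over the 6 arrays, the genes most like Tgm2 among those at or above the median level were Stk40, a kinase-like gene (Pearson r = 0.998), Acp5, tartrate-resistant acid phosphatase (r = 0.992), and Pglyrp1, a peptidoglycan recognition protein (r = 0.990). Of 6196 genes compared, 224 had an r above 0.9. The 6 points are the same arrays in 2 groups, so any gene that separates the groups tends to correlate. Acp5 differed by -1.80 (limma adjusted p = 0.0354), Pglyrp1 by -1.02 (limma adjusted p = 0.0673) and Stk40 by -0.29 (limma adjusted p = 0.360).

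Other genes of apoptotic cell uptake were read as 7 lists by role, 116 measured genes of 133 listed. Of these 6 rose and 3 fell in arrays labelled spleen, 7.76% of the lists against 3.4% of all genes, with a median difference of 0.04 beside -0.0053 over all genes. The lists were chosen with earlier results of these data known, so the higher share is no evidence about the pathway. Each list count below is to be read beside the shares of all genes, 2.03% higher and 1.37% lower in arrays labelled spleen. With 13 to 20 genes in a list, 0 or 1 call is near these shares. This count of 9 was 1 when lymph node array 1 or 2 was dropped, 3 for spleen array 1, 6 for lymph node array 3, 7 for spleen array 2 and 9 for spleen array 3. With the poly-A or the plasmacytoid DC level as a covariate it was 0, where limma called 0 and 27 of all genes, with 701 and 2061 at an unadjusted p under 0.05.

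Further receptors for phosphatidylserine and apoptotic cells had 2 of 19 members higher in the arrays labelled spleen and 1 lower (median -0.06). Marco, a scavenger receptor of marginal zone macrophages, lay at 129.0, 122.8 and 64.4 intensity units in the arrays labelled spleen and at 14.8, 27.2 and 32.6 in those labelled lymph node. That is a 4.27-fold difference with no overlap (2.09 ± 0.37 SE, limma adjusted p = 0.0310). Cxcl16, a chemokine whose membrane form binds oxidised lipid and phosphatidylserine, was 2.88-fold higher (limma adjusted p = 0.0304). Cd300a, an inhibitory receptor that recognises phosphatidylserine, fell from 788.0 to 934.0 in the arrays labelled lymph node to 310.4 to 436.3 in those labelled spleen (difference -1.19 ± 0.18 SE, limma adjusted p = 0.0201). The members that passed thus include receptors that take up ligands and one that inhibits.

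Other bridging and opsonising molecules had 0 of 18 members past the threshold in either direction (median 0.07), where 3.4% of all genes passed. All 18 had groups that overlapped, while the groups did not overlap in 24.5% of all genes. The smallest adjusted p belonged to Anxa1, a phosphatidylserine-binding annexin, with a difference of 0.71 (limma adjusted p = 0.364), and to Sftpd, the collectin surfactant protein D, with -0.37 (limma adjusted p = 0.442). Engulfment signalling, the Elmo, Dock and Rac module that moves actin around the target, also had 0 of 18 past the threshold (median -0.04). Its leading members were the GTPase gene Rhog, at 62.4, 92.5 and 76.2 in the arrays labelled spleen against 147.7, 180.8 and 119.6 (-0.95 ± 0.22 SE, limma adjusted p = 0.0622). Its partner Elmo1 lay at 446.7, 647.2 and 365.6 against 1022, 965.2 and 784.8 (-0.96 ± 0.24 SE, limma adjusted p = 0.0734). In both genes the groups did not overlap. Dock1 of the same list went the other way without overlap, at 15.6, 19.7 and 16.9 against 9.7, 8.8 and 12.5 (0.76, limma adjusted p = 0.0751). Of the 18 genes 7 had differences above 0 and 11 below.

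Of 14 find-me and do-not-eat-me genes 2 were lower and 0 higher in arrays labelled spleen (median 0.17). Sirpa, the receptor for the do-not-eat-me signal CD47, was 2.29-fold lower (limma adjusted p = 0.0121) with groups that did not overlap in any of its 3 probe sets. Pecam1, an adhesion molecule that detaches live cells from phagocytes, lay at 74.8, 54.2 and 74.1 in the arrays labelled spleen and at 125.8, 144.8 and 129.8 in those labelled lymph node (-0.99 ± 0.18 SE, limma adjusted p = 0.0343). Among 20 genes of LC3-associated phagocytosis and corpse digestion, 1 was higher and 0 lower (median 0.02). It was Npc2, the lysosomal cholesterol carrier, 1.80-fold higher with groups that did not overlap in both of its probe sets (limma adjusted p = 0.0402).

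Lipid efflux follows uptake, since a phagocyte has to export the cholesterol of its meal. Of 14 nuclear receptor and efflux genes 2 rose and 0 fell in arrays labelled spleen (median 0.30). Abca1, the cholesterol exporter, lay at 22.8, 24.5 and 17.1 intensity units there and at 6.1, 6.8 and 8.5 in the arrays labelled lymph node, a 3.00-fold difference (limma adjusted p = 0.0119). Its level in the second group is below the lower quartile of the arrays, so the size is uncertain, though all 3 probe sets had the same sign. Abcg1, the exporter to high-density lipoprotein, lay at 421.6, 409.0 and 491.4 against 255.4, 278.5 and 256.7 (1.67-fold, limma adjusted p = 0.0477). Among 13 genes of TAM signalling 1 was higher and 0 lower (median 0.22). It was Socs3, a feedback inhibitor of cytokine signalling, 5.64-fold higher (limma adjusted p = 0.00550), a sign shared by 2 of its 3 probe sets. Both of these carry the suffix of designs that can cross-hybridise. The only one without that suffix separated the groups in the opposite direction. It lay at 9.6, 10.6 and 12.3 in arrays labelled spleen and 17.2, 13.7 and 15.6 in those labelled lymph node. The direction of Socs3 is therefore uncertain.

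**Figure D4:**
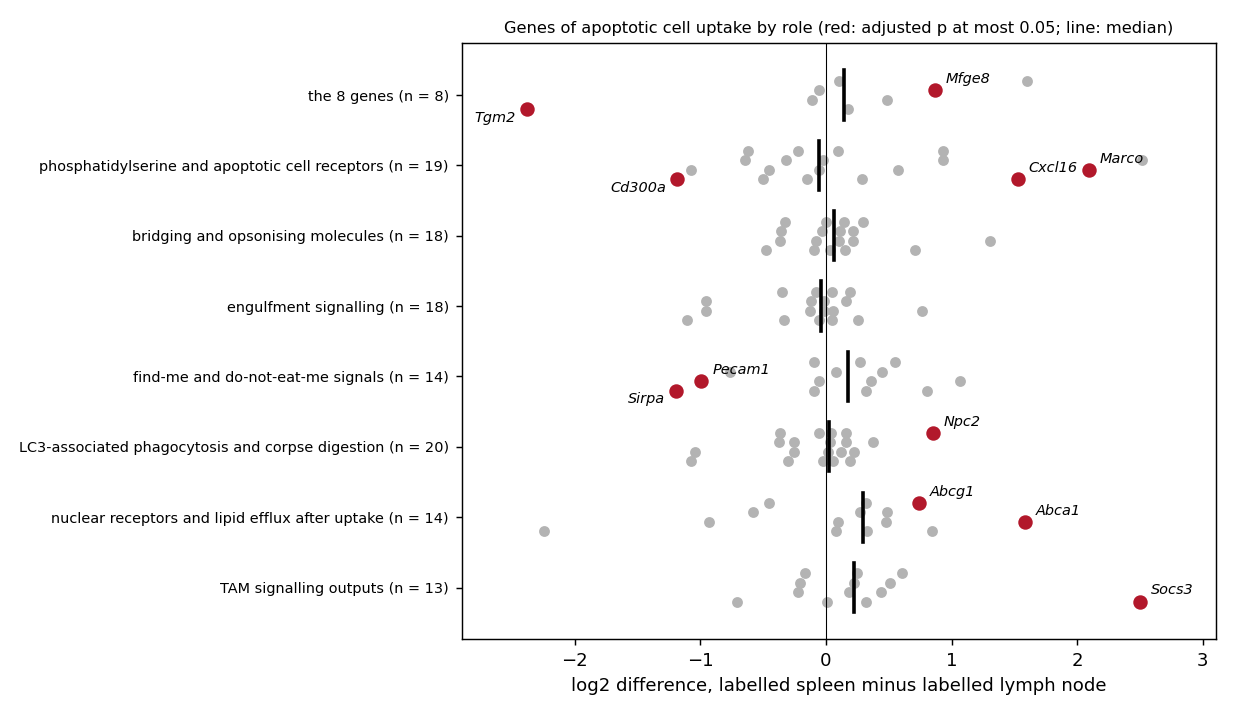
Difference between the groups (x axis, log2, labelled spleen minus labelled lymph node) of each measured gene in the 8-gene set and the 7 lists by role (y axis), with genes at an adjusted p of at most 0.05 in red and the list median as a black line. Red genes lie on both sides of 0 among the 8 genes and the receptors. The bridging and engulfment lists, of 18 genes each, have none, where 3.4% of all genes passed.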

How the data were processed

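Per the labels' protocols, RNA came from a TRIzol and column extraction with 20 ng of carrier, had an integrity number above 8.4, and 2 ng of it was amplified and biotinylated. The deposited intensity values are probe set summaries on a linear scale with 1 decimal. RMA and limma are named in the submitters' processing notes, their versions are not given in the sources used here, and how the linear scale was made is unknown. Groups were taken from the sample titles. Of 22690 probe sets, 64 controls were left out of the tests and 20380 had 1 symbol, 691 several. Each of 12393 genes was read by its brightest probe set, as log2, in R 4.3.3 with limma 3.58.1 (lmFit, eBayes), two-sided, with p-values adjusted over all genes by Benjamini-Hochberg and a threshold of 0.05. Exact permutation tests used scipy 1.17.1. Folds are ratios of geometric means. No level filter was applied. Genes named are the 8, up to 5 passing members of each list (the 2 leading where none passed) and the 3 genes most like the member with the highest mean and the largest difference (Tgm2 for both). Outside this rule, marker genes and Flt3, Ccl22, Ccr7 and Dock1 were named after their values were seen. The members and lists were chosen with earlier results of these data known. The fit was tested on simulated data. Alternatives were a second quantile normalization, median centring, an offset of 16, a filter at the median level, other choices of probe set, trend and robust eBayes, array weights, a replicate block, 2 covariates and arrays left out.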

Additional observations from a re-analysis of the deposited data

How the results depend on the processing

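Mfge8, Cd36 and Tgm2 kept their sign in all alternatives run (17, 18 and 18), and Mfge8 passed in 7 and Tgm2 in 10 of them. The count of the 8 genes past the threshold, 2 as reported, was 1 with log2 of the value plus 16 and 0 with either covariate, and 0 to 1 with 1 array left out. The count over all genes, 421, was 764 with array weights, 0 with the poly-A level, 27 with the plasmacytoid DC level and 47 to 475 with 1 array left out. The count of genes in the uptake lists, 9, was 17 with array weights, 0 with either covariate and 1 to 9 with 1 array left out. Both covariates vary with the groups and leave 3 residual degrees of freedom; the cause of the lost calls was not tested. Signs reversed in genes that did not pass: Axl with the poly-A level (-0.030), Mertk without both arrays numbered 3 (0.21), Tyro3 with the mean of its probe sets (-0.14) and the poly-A level (-0.57), Gas6 with the plasmacytoid DC level (0.16) and Msr1 with the poly-A level (-0.15). With 1 array left out Axl ranged from -0.30 to 1.65, Mertk from -0.34 to 0.20 (0.0010 without spleen array 2) and Gas6 from -0.21 to 0.022 (0.022 without spleen array 2, 0.01 without spleen array 3). Deviations from the group means correlated at 0.02, 0.24 and 0.16 between same-numbered arrays and at -0.28 to 0.13 between differently numbered ones. These values do not settle whether the numbers are pairs. The labels do not name pairs, and the reported fit used none. With the replicate block 519 genes passed, 2 of the 8 (Cd36 and Tgm2, with Mfge8 at an adjusted p of 0.0612) and 10 in the uptake lists. In that fit Tgm2 differed by -2.38 ± 0.21 (SE, limma adjusted p = 0.00738). Low signal limits Gas6, Mertk and the dim probe sets.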
